A study of Mus musculus with 6 samples.

Results

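The genes described here encode the protein-folding machinery of the endoplasmic reticulum (ER) and the unfolded protein response that adjusts it. Members were taken by gene symbol from a fixed list, and all 36 were found among the 21878 genes of the table. Expression was measured by RNA-seq in NIH3T3, an immortalised mouse embryo fibroblast line, in 2 groups of 3 libraries each. Cells of both groups were labelled with radiation injury and with a time point of 72 h. The groups differ in the treatment: exosomes, which the series title calls plasma-derived, or PBS, the saline control. The radiation dose, the source animal of the plasma and the vesicle dose were not given in the sources used here, and an unirradiated group was not analysed here. Separate cultures are not named in the labels. The p-values set the difference between groups against the scatter of these libraries, and that scatter may be technical.

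Proteins bound for secretion, the plasma membrane or the matrix enter the ER through the Sec61 channel and fold there with the help of chaperones, lectins and disulfide-forming enzymes. Those that fail are drawn back to the cytosol and degraded by the proteasome, a route called ER-associated degradation (ERAD). When unfolded protein accumulates, the sensors IRE1 (gene Ern1), PERK (Eif2ak3) and ATF6 (Atf6) raise the transcription of this machinery, IRE1 through splicing of the Xbp1 mRNA. Fibroblasts carry a heavy load of secreted matrix protein, above all procollagen, and so depend on this system.

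Levels are given in FPKM, which divide the fragments of a transcript by its length and by the depth of the library, so that genes can be set beside each other. The tested members ranged from 3.68 FPKM for Ern1 to 335 for Calr as the mean of the 6 libraries. Calr, P4hb, Hsp90b1, Serpinh1, Pdia3 and Hspa5 were the 6 most abundant members and stood among the 200 highest genes of the table. Ero1lb was at 0.62 FPKM, under the filter of at least 1 FPKM in 3 or more libraries, and Derl3 was listed at 0 in all 6. The other 34 members were tested. Behind these levels stood, in the authors' deposited table, mean normalized counts in the PBS group from 146 for Sdf2l1 to 36128 for Hsp90b1 among the members tested.

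Genes at 1 FPKM or more numbered 10080 to 10161 in the PBS libraries and 10245 to 10271 in the exosome libraries, ranges that do not overlap. All 8 fibroblast markers listed reached 1 FPKM, and their summed level was 4441 to 4880 FPKM with PBS and 5654 to 5849 with exosomes. Of 7 leukocyte markers measured, Csf1r, Cd68 and Cd14 reached 1 FPKM in any library, and the sum over the list was 7.34 to 11.9 FPKM with PBS and 4.46 to 5.28 with exosomes. Among 8 markers of B lymphocytes and plasma cells, which express ER chaperones strongly, Cd79b, Ms4a1 and Irf4 were at 0 in every library. Sdc1 alone of that list reached 1 FPKM, and the list summed to 34.5 to 40.4 FPKM with PBS and 42.9 to 45.2 with exosomes. Neither 6 epithelial nor 4 endothelial markers reached 1 FPKM. Of the red cell and platelet list, with 6 genes in the table, Hba-a1, Ppbp and Itga2b reached 1 FPKM in any library. That list summed to 2.63 to 4.99 FPKM with PBS and 3.86 to 4.60 with exosomes. The part of these markers in the results below was not tested.

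**Figure D1:**
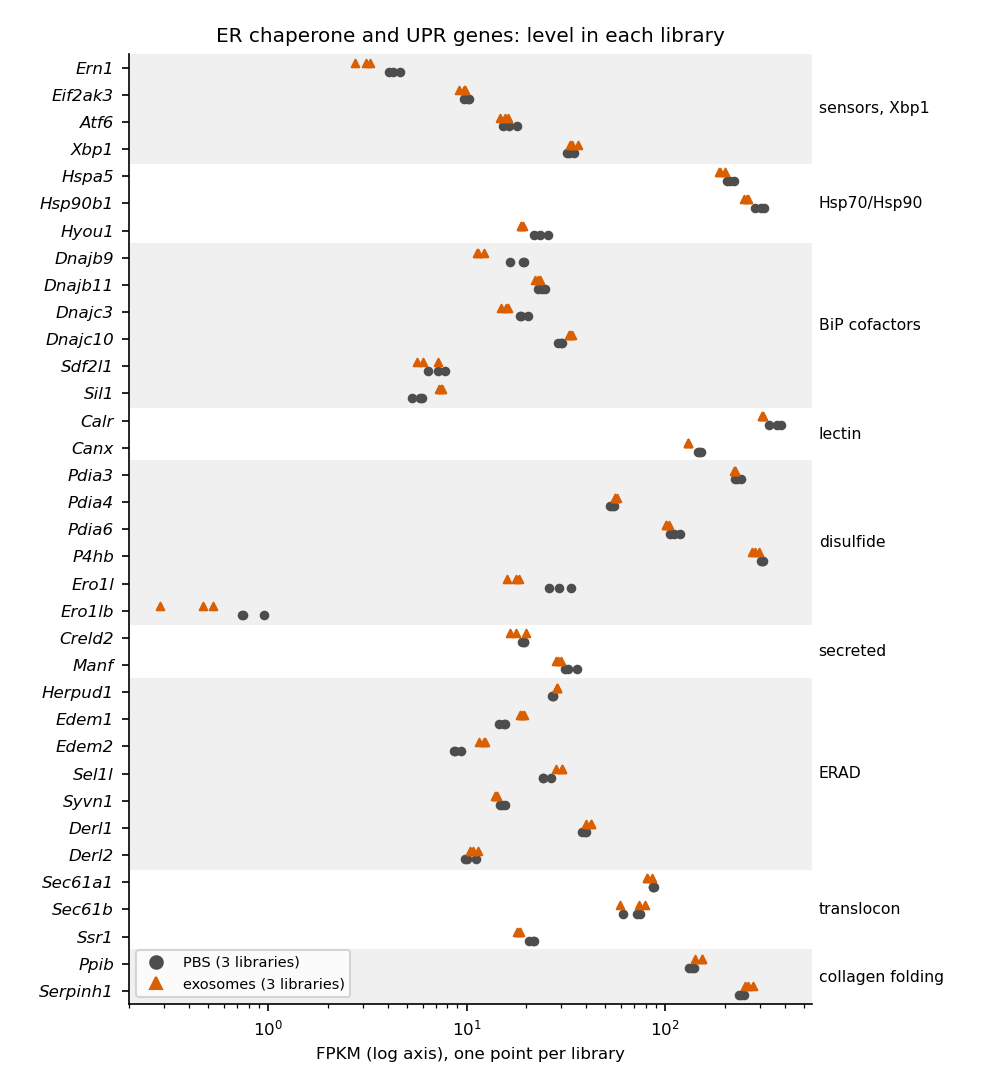
Level of 35 members in each library (Derl3, at 0 throughout, is not drawn). The horizontal axis is FPKM on a log scale, each point is 1 library, circles are PBS and triangles exosomes, and shading separates the role groups named at the right. Levels run from 0.285 FPKM for Ero1lb in an exosome library to 382 for Calr in a PBS library, and the gap between groups is widest for Ero1l, Ero1lb and Dnajb9.

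With exosomes the Hsp70, Hsp90 and lectin chaperones of the ER were lower by 9.88% (Hspa5) to 20.0% (Hyou1). The oxidase gene Ero1l and the cochaperone gene Dnajb9 fell most, and 3 genes of ERAD rose. The calls of Hspa5 and Calr ended under some of the alternatives given below, and the disulfide isomerases were not called. Of the 34 tested members 17 passed the threshold (50%), an adjusted p under 0.05 by limma on log2(FPKM + 1) with Benjamini-Hochberg adjustment over all genes tested, which 43.8% of the 10274 tested genes passed. That share is near the background. The calls leaned downward: 11 members were lower (32.4%, against 18.4% of all tested genes) and 6 were higher (17.6%, against 25.4%). The median log2 change of the tested members was −0.09, beside 0.04 for all genes tested, with a range from −0.73 for Ero1l to 0.40 for Edem2. In 25 members (73.5%) the 3 exosome libraries lay wholly on one side of the 3 PBS libraries, 15 of them below and 10 above. This held for 55.6% of all tested genes, 23.5% below and 32% above. All changes are exosomes over PBS, with SD for levels (n = 3) and standard errors (SE) for log2 changes.

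**Figure D2:**
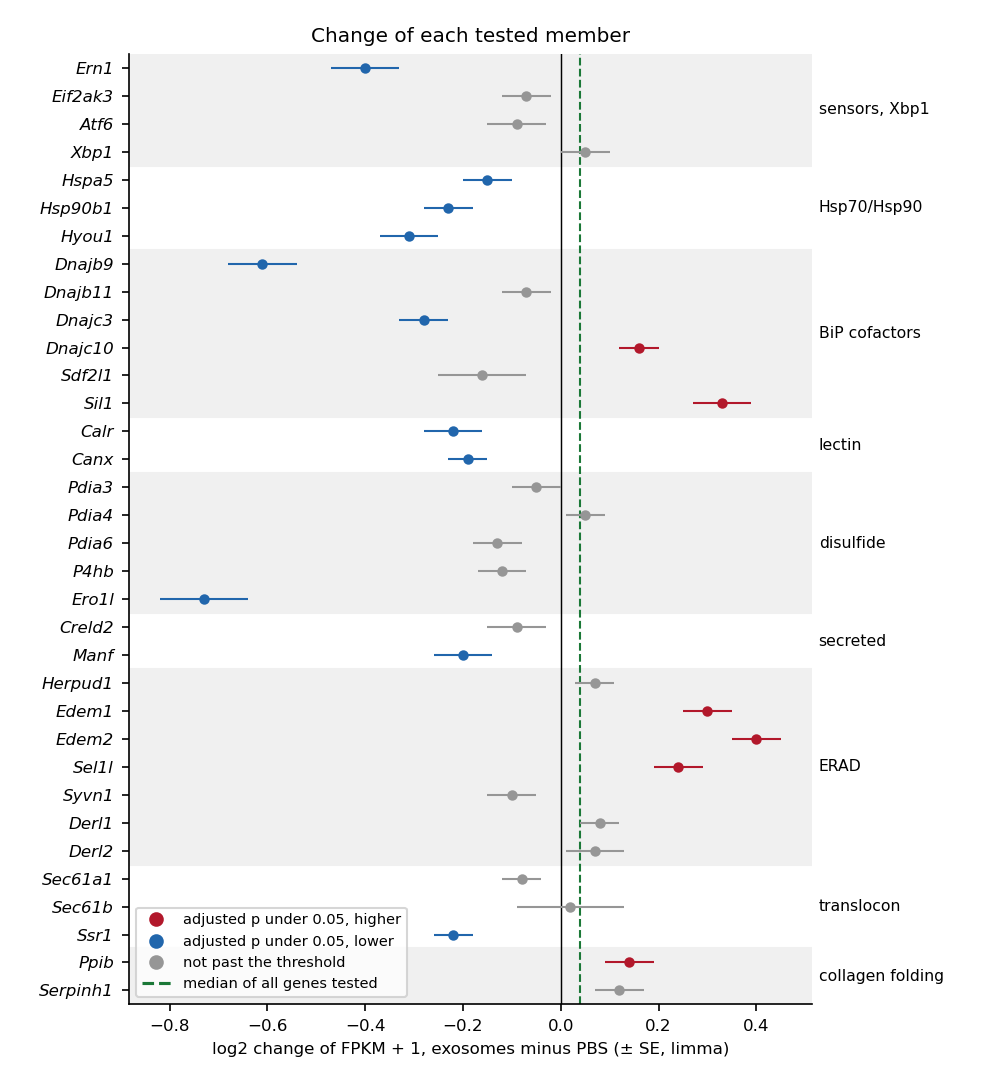
Log2 change of each of the 34 tested members, exosomes minus PBS on the log2(FPKM + 1) scale, with SE bars from limma. Blue and red points passed an adjusted p of 0.05, lower and higher, grey points did not, and the dashed line is the median of all genes tested (0.04). Both lectin chaperones and all 3 chaperones of the Hsp70 and Hsp90 classes lie left of 0, while 6 of 7 ERAD genes lie right of it, 3 of them called. Over all 10274 tested genes 4482 changes were below 0 and 5792 above it.

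The promoters of many ER chaperone genes carry an ER stress response element (ERSE), the site through which ATF6, together with the CCAAT-binding factor NF-Y, raises them during ER stress. RefSeq promoter windows (GRCm38.p6, 250 bases before to 50 after each start) were matched by Entrez identifier to 30 of the 36 members, all but Atf6, Derl1, Hyou1, Manf, Sec61a1 and Sil1. Both strands were searched for the letters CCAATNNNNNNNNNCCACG, and 10 of the 30 members (33.3%) held a match, against 0.119% of all 32851 windows. The matches are printed to show what these promoters share, read 5′ to 3′ on the strand that carries CCAAT, with the fixed bases in capitals and the free spacer in lower case. Hsp90b1 has a pair of matches, named here by their distance from the start.
Hspa5: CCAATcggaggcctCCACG
Hsp90b1 near: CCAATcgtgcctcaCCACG
Hsp90b1 far: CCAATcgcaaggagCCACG
Calr: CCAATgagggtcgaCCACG
Canx: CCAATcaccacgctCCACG
Dnajc3: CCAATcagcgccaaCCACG
Pdia6: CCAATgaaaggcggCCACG
Syvn1: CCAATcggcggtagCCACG
Creld2: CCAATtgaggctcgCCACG
Ero1lb: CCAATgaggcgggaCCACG
Derl3: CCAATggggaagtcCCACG
The Hspa5 match lies 65 to 47 bases before the start and those of Hsp90b1 107 to 89 and 212 to 194 bases before it. The shorter element ERSE-II (ATTGGNCCACG) was found in 2 of the 30 members, Herpud1 and Dnajb11, against 0.0365% of all windows. The core of the unfolded protein response element (TGACGTGG or TGACGTGA) was found in 1 of them, Hspa5, against 1.12% of all windows. These 3 motifs can share their CCACG or CGTGG letters with each other. Members were counted by gene and the background by window, with the members' own windows included. A high share of ERSE among the members was given in advance, since promoters of ER chaperone genes are known to carry it. A match describes letters only and says nothing of binding in these cells.

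The bases before the start of Hspa5 (chr2:34771840-34772089, plus strand) and Hsp90b1 (chr10:86705445-86705694, minus strand), both GRCm38.p6, show where the elements stand in the genes of the 2 best-known ER chaperones. Capitals mark the fixed bases of ERSE, which reads CGTGG, spacer, ATTGG where it lies on the other strand.
Hspa5: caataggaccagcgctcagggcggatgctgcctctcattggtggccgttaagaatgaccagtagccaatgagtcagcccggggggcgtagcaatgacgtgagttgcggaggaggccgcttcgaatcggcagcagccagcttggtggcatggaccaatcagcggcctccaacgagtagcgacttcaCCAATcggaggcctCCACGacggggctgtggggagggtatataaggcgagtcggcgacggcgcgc
Hsp90b1: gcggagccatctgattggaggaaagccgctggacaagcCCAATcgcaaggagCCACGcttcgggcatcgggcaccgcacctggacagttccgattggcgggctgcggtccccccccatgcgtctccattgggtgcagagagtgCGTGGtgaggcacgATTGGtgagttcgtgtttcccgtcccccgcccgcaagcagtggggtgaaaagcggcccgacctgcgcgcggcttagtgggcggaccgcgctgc
Of the 10 members with ERSE 8 were tested, and the log2 changes of all 8 were below 0, from −0.28 for Dnajc3 to −0.09 for Creld2, with a median of −0.17. Over all tested genes 4482 of 10274 changes were below 0. Of the 8 members 5 passed the threshold, each lower (Hspa5, Hsp90b1, Calr, Canx and Dnajc3), where 18.4% of all tested genes were lower, and Pdia6, Syvn1 and Creld2 did not. The 20 members with a window without ERSE had a median of 0.04, with 4 lower, 5 higher and 11 not past the threshold. They include the members with the lowest and the highest change, Ero1l and Edem2. Herpud1 and Dnajb11, whose windows held ERSE-II, are also counted among the 20, since only exact ERSE matches were classed. The difference between these groups was not tested.

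**Figure D3:**
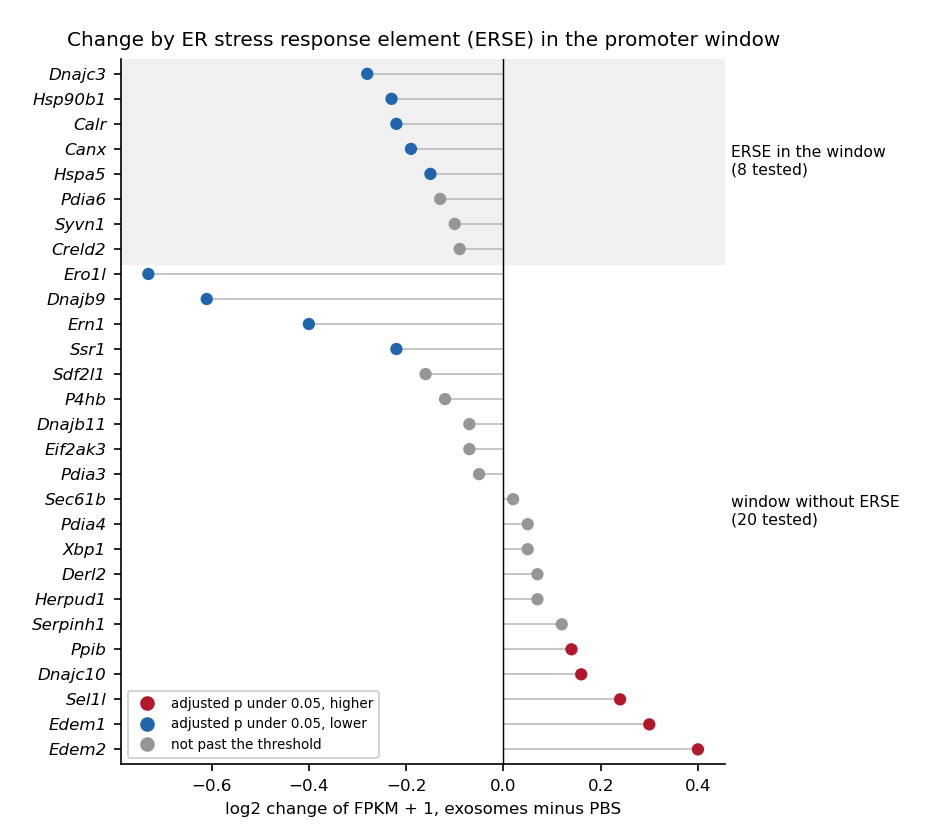
Log2 change (exosomes minus PBS) of the 28 tested members with a promoter window, ordered within 2 groups: 8 with an ERSE match (shaded) and 20 without. Colours are as in the plot of member changes, and every point of the shaded group lies between −0.28 and −0.09, while the other group spans −0.73 to 0.40.

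Among the sensors, Ern1 fell and the other genes did not pass the test. Ern1 encodes IRE1, the kinase and RNase that splices Xbp1 mRNA. It was at 4.62, 4.28 and 4.09 FPKM in PBS replicates 1 to 3 and at 3.12, 2.75 and 3.26 in exosome replicates 1 to 3. Every exosome library lay below every PBS library, and the mean was 29.7% lower (log2 change −0.40 ± 0.07, limma adjusted p = 0.00178). Eif2ak3, the gene of PERK, which slows translation by phosphorylating eIF2α, was at 9.69, 10.2 and 10.3 FPKM with PBS and 9.79, 9.68 and 9.15 with exosomes. These ranges overlap, and the difference did not pass (−0.07 ± 0.05, adjusted p = 0.31). Atf6, whose product is cut in the Golgi to release a transcription factor, was at 16.4, 15.3 and 18 FPKM with PBS and 16.1, 14.7 and 15.6 with exosomes (−0.09 ± 0.06, adjusted p = 0.289). Xbp1 was at 32.9, 34.8 and 32.2 FPKM with PBS and 33.2, 34.0 and 36.2 with exosomes, again overlapping (0.05 ± 0.05, adjusted p = 0.464). Values per gene do not separate spliced from unspliced Xbp1 mRNA, so the activity of IRE1 was not measured here.

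All 3 chaperones of the Hsp70 and Hsp90 classes fell. Hspa5 encodes BiP, the Hsp70 of the ER, which also holds the sensors inactive while it is free. Its level was 222, 211 and 206 FPKM in the PBS libraries and 188, 187 and 201 in the exosome libraries. The highest exosome library was only just below the lowest PBS library, and the mean was 9.88% lower (log2 change −0.15 ± 0.05, limma adjusted p = 0.0344). This call was the least stable among the chaperones and ended without PBS replicate 1 (adjusted p = 0.136), PBS replicate 2 (0.0532), exosome replicate 1 (0.108) or exosome replicate 2 (0.102). It also ended with a replicate block (0.0946), without the filter on low values (0.0536) and without trend and robust estimation (0.0521). Hsp90b1, the gene of the Hsp90 of the ER known as GRP94, was at 315, 303 and 285 FPKM with PBS and 250, 260 and 258 with exosomes. The groups were well apart, with a mean 15.1% lower (−0.23 ± 0.05, adjusted p = 0.00505). Hyou1, a large Hsp70 relative that releases nucleotide from BiP, was at 23.5, 21.8 and 25.7 FPKM with PBS and 19.2, 18.8 and 18.7 with exosomes. Its mean was 20.0% lower (−0.31 ± 0.06, adjusted p = 0.00296), the largest change of the class, and the exosome libraries agreed closely with each other.

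The cofactors of BiP moved in both directions. Dnajb9, the gene of ERdj4, a J-domain protein that directs BiP to misfolded proteins and to IRE1, had 19.4, 16.6 and 19.2 FPKM in the PBS libraries and 11.3, 11.4 and 12.3 in the exosome libraries. The lowest PBS library was well above the highest exosome library, and the mean was 36.5% lower (log2 change −0.61 ± 0.07, limma adjusted p = 0.000116). Dnajc3, which encodes p58IPK, a J-domain protein also known as an inhibitor of PERK, went from 18.6, 18.7 and 20.4 FPKM to 15.8, 16.2 and 14.9, again with no overlap (−0.28 ± 0.05, adjusted p = 0.00304). Sil1, a nucleotide exchange factor of BiP, rose from 5.83, 5.98 and 5.28 FPKM to 7.25, 7.46 and 7.48. All exosome libraries were above all PBS libraries, by 29.9% in the mean (0.33 ± 0.06, adjusted p = 0.00179). Thus the nucleotide exchange factors Sil1 and Hyou1 passed the test in opposite directions. Dnajc10, whose product ERdj5 reduces disulfide bonds ahead of degradation, rose by 12.0% in the mean, from 28.9 to 30.1 FPKM across the PBS libraries to 32.7 to 33.9 across the exosome libraries (0.16 ± 0.04, adjusted p = 0.0143). Dnajb11, the gene of the BiP cochaperone ERdj3, did not pass (PBS mean 24 ± 0.917 FPKM, exosome mean 22.8 ± 0.612, adjusted p = 0.244). Sdf2l1, whose product partners ERdj3, did not pass either (PBS mean 7.13 ± 0.685 FPKM, exosome mean 6.30 ± 0.821, adjusted p = 0.18). Without exosome replicate 3 Sdf2l1 passed as lower (adjusted p = 0.0444).

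Both lectin chaperones, which hold newly made glycoproteins by their sugar chains, fell. Calr, calreticulin, was at 382, 366 and 334 FPKM in the PBS libraries and 308, 306 and 312 in the exosome libraries. The exosome libraries lay close together and below a wider spread of PBS libraries (log2 change −0.22 ± 0.06, limma adjusted p = 0.0103), and without PBS replicate 1 the adjusted p was 0.0511. Canx, its membrane-bound relative calnexin, was at 151, 147 and 148 FPKM with PBS and 130, 130 and 131 with exosomes. Here the spread was small in both groups and the mean 12.2% lower (−0.19 ± 0.04, adjusted p = 0.00488). Together the 2 genes summed to 510 ± 25.9 FPKM with PBS and 439 ± 3.68 with exosomes.

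Of the enzymes that form disulfide bonds the oxidase gene Ero1l fell, while the isomerases did not pass the threshold. Ero1l encodes ERO1α, which passes electrons from the isomerases to oxygen, and is also known as a gene induced by hypoxia. It was at 29.3, 33.7 and 26.0 FPKM with PBS and 15.9, 18.4 and 17.8 with exosomes. The difference was the largest of the tested members, 41.3% in the mean, and larger than the spread within either group (log2 change −0.73 ± 0.09, limma adjusted p = 0.000307). Its paralog Ero1lb was at 0.738, 0.954 and 0.746 FPKM with PBS and 0.527, 0.285 and 0.471 with exosomes, below the filter and so not tested, and the fit without that filter called it lower. The authors' deposited table, which used counts, lists Ero1lb at a fold of 0.523 with an adjusted p of 0.000125, from mean normalized counts of 52.8 with exosomes and 101 with PBS. P4hb, the gene of protein disulfide isomerase itself and of a subunit of collagen prolyl hydroxylase, was 285 ± 11.2 FPKM against 309 ± 3.23 with PBS (adjusted p = 0.0724). Pdia6 was 102 ± 2.06 against 112 ± 6.32 (adjusted p = 0.0614). For both the groups did not overlap, and each was called lower under some alternatives, P4hb with quantile normalization (adjusted p = 0.0165) and Pdia6 with upper quartile scaling (0.0455) or without PBS replicate 3 (0.0309). Pdia3, which works with the lectin chaperones, was 224 ± 0.772 against 232 ± 8.66 FPKM (adjusted p = 0.373), and Pdia4 was 56.1 ± 0.986 against 54.0 ± 1.06 (adjusted p = 0.305).

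Manf and Creld2 encode small proteins that stressed cells secrete. Manf was at 36, 32.3 and 31.4 FPKM with PBS and 29.8, 28.7 and 28.1 with exosomes, and its fall was modest (log2 change −0.20 ± 0.06, limma adjusted p = 0.0197). The call ended without PBS replicate 1 (adjusted p = 0.0764), exosome replicate 2 (0.0576) or exosome replicate 3 (0.065). Creld2 was at 19.4, 19 and 19.4 FPKM with PBS and 20.0, 16.6 and 17.7 with exosomes. Exosome replicate 1 was the highest of the 6 libraries and the other exosome libraries were the lowest, so the groups overlapped (−0.09 ± 0.06, adjusted p = 0.275). Without exosome replicate 1 Creld2 passed as lower (adjusted p = 0.0425).

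Of 7 tested ERAD members 3 rose (42.9%, against 25.4% of all tested genes), 0 fell (against 18.4%) and 4 did not pass the threshold. How they differ from the other members was not tested. At an unadjusted p under 0.05 limma likewise gave 0 lower, and at an adjusted p under 0.05 the authors' deposited table gave 1, Syvn1. Edem2, which starts the trimming of mannose that marks glycoproteins for degradation, was at 8.61, 9.39 and 8.76 FPKM with PBS and 12.3, 12.4 and 11.6 with exosomes. It was the member that rose most, by 35.9% in the mean (log2 change 0.40 ± 0.05, limma adjusted p = 0.000372). Its relative Edem1 rose from 14.6, 15.5 and 15.7 FPKM to 18.6, 19.5 and 19 (0.30 ± 0.05, adjusted p = 0.00104). Both groups of both genes were tight and well apart. Sel1l, the adaptor that brings substrates to the ubiquitin ligase HRD1, rose from 24.3, 26.5 and 24.2 FPKM to 28.2, 30.3 and 30.3 (0.24 ± 0.05, adjusted p = 0.00639). Syvn1, the gene of HRD1, was at 15, 14.8 and 15.6 FPKM with PBS and 14.2, 14.1 and 13.9 with exosomes. All 3 exosome libraries were lower, but the difference of 7.11% did not pass (−0.10 ± 0.05, adjusted p = 0.105). The deposited table of the authors, from counts, gives Syvn1 an adjusted p of 0.0339 and a fold of 0.865. The genes of the channel-like Derlins and of Herpud1, a scaffold of the HRD1 complex, did not pass: Derl1 was 41.4 ± 1.36 against 39.2 ± 0.929 FPKM (adjusted p = 0.185), Derl2 10.9 ± 0.523 against 10.3 ± 0.680 (0.392) and Herpud1 28.5 ± 0.0768 against 27.2 ± 0.191 (0.214).

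At the translocon Ssr1, a subunit of the complex that assists Sec61 with some signal sequences, fell from 21.9, 20.7 and 21.5 FPKM to 17.9, 18.5 and 18.3, with no overlap (log2 change −0.22 ± 0.04, limma adjusted p = 0.00416). The channel subunits themselves did not pass. Sec61a1, the pore, had 87.6 ± 0.618 FPKM in the PBS group and 82.6 ± 2.49 in the exosome group (adjusted p = 0.126). Sec61b was 70.6 ± 10.2 against 69.3 ± 7.18 (adjusted p = 0.88), with the largest SE of the tested members (0.11) and replicate 2 the lowest library in each group.

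Both members grouped here under collagen folding had means above PBS, and Ppib passed the test. The authors' deposited table called neither, at folds of 1.07 for Ppib (adjusted p = 0.274) and 1.04 for Serpinh1 (adjusted p = 0.539). Other genes that act on collagen are listed with the other ER folding enzymes. Among them Fkbp10 was higher (log2 change 0.17, limma adjusted p = 0.00853), while Crtap (0.00, 0.969) and P3h1 (−0.10, 0.257) did not pass. P4hb, grouped with the disulfide enzymes though it also serves collagen prolyl hydroxylase, had a lower mean (log2 change −0.12 ± 0.05, limma adjusted p = 0.0724). Ppib, the gene of the prolyl isomerase cyclophilin B that acts on procollagen, was at 136, 139 and 132 FPKM with PBS and 153, 141 and 153 with exosomes. It rose by 10.1% in the mean (log2 change 0.14 ± 0.05, limma adjusted p = 0.0427), a call that ended without PBS replicate 1 (0.103), PBS replicate 3 (0.115), exosome replicate 1 (0.13) or exosome replicate 3 (0.127). It ended as well with a replicate block (0.104), without the filter (0.0644) and without trend and robust estimation (0.0681). Serpinh1, the gene of the collagen-specific chaperone HSP47, was at 236, 249 and 240 FPKM with PBS and 261, 252 and 276 with exosomes. Its groups did not overlap either, but the gap was narrow (0.12 ± 0.05, adjusted p = 0.0684, and 0.0299 with quantile normalization).

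Summed over each role, the levels moved in both directions. The 3 chaperones of the Hsp70 and Hsp90 classes came to 538 ± 21.5 FPKM with PBS and 467 ± 10.7 with exosomes, 13.2% lower, and the lectin chaperones were 13.8% lower. The disulfide enzymes were lower by 7.08%, the J-domain proteins and BiP cofactors by 6.79% and the secreted proteins by 10.6%. In each of these sums the groups did not overlap, while the sensor and translocon sums overlapped. The 8 ERAD genes came to 141 ± 2.28 and 156 ± 0.723 FPKM, 10.3% higher. The 2 genes grouped under collagen folding, a group without P4hb, came to 377 ± 8.95 and 412 ± 17.7, 9.40% higher. All 36 members together took 0.882% to 0.912% of the summed FPKM of the PBS libraries and 0.823% to 0.831% of that of the exosome libraries. These sums follow the most abundant genes and were not tested. Bulk values cannot tell less RNA per cell from fewer cells that express a gene.

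**Figure D4:**
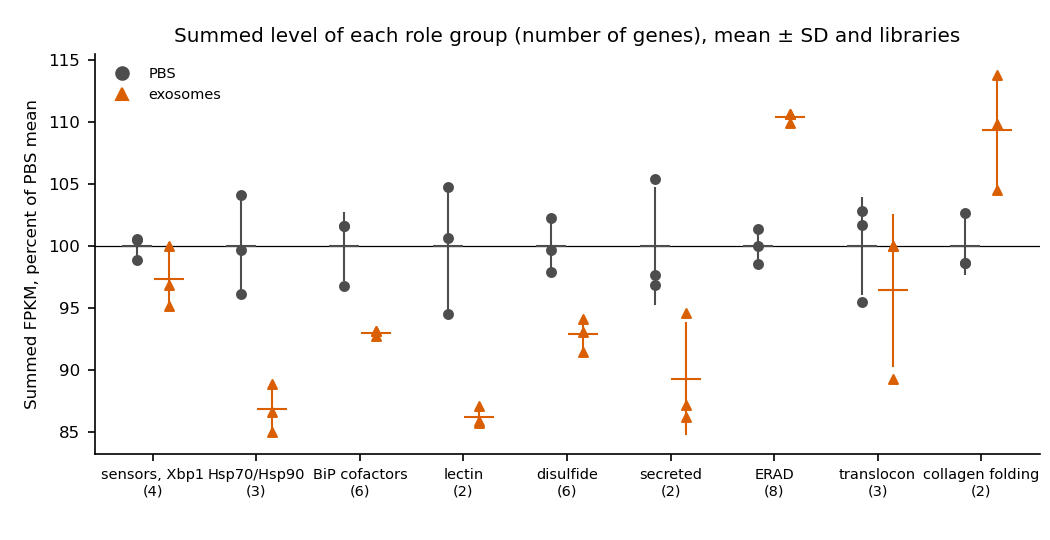
Summed FPKM of each role group as a percent of its PBS mean, with the number of genes in parentheses. Points are libraries (circles PBS, triangles exosomes), and bars give the mean and SD of 3 libraries. The Hsp70 and Hsp90 class and the lectin chaperones are 13.2% and 13.8% lower with exosomes, ERAD genes 10.3% higher, and the sensor and translocon groups overlap.

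The authors' deposited table compares the same libraries from counts and leans further downward. Among the 35 members to which the authors' deposited table gives an adjusted p, 15 are lower and 4 higher at an adjusted p under 0.05. Of all 15844 genes it tests, which include many under the filter used here, 13.5% are lower and 12.4% higher (25.9% in all). Of the 10262 that passed that filter, 2031 are lower and 1723 higher. The 15 lower members include all 11 called lower here, together with Pdia6, P4hb, Syvn1 and Ero1lb. Its 4 higher members are Sil1, Edem1, Edem2 and Sel1l, and Dnajc10 (fold 1.10, adjusted p = 0.0812) and Ppib (1.07, 0.274) are not called in the authors' deposited table. Thus 35.3% of the members called here were higher and 21.1% of those called in the authors' deposited table. Over the genes tested here the same shares were 58% and 45.9%. The median log2 fold of the 34 tested members in the authors' deposited table is −0.14, beside −0.01 for the 10274 genes tested here, a gap much like that of the FPKM values.

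Of the wider pathway, 6 further lists were examined, with 155 tested genes outside the member list. In these 35 genes rose and 19 fell, 34.8% in all against the 43.8% of all genes, and their median change was 0.02, where that of the members was −0.09. The difference was not tested. The list of the PERK branch and ATF4 outputs had the highest share of calls of the 6. In it 14 of 16 tested genes passed (87.5%), 7 higher and 7 lower, with a median of 0.09. Atf4, the transcription factor that PERK signalling raises by translation, was at 260, 257 and 254 FPKM with PBS and 321, 292 and 290 with exosomes (log2 change 0.23 ± 0.05, limma adjusted p = 0.00648). Ddit3, the gene of the pro-apoptotic factor CHOP, rose from 11.2, 12.3 and 9.70 FPKM to 14, 13.1 and 14.7 (0.31 ± 0.08, adjusted p = 0.0106), and Asns, asparagine synthetase, from 61.1 ± 1.23 to 78.7 ± 1.09 (0.36 ± 0.04, adjusted p = 0.000145). In the same list Nfe2l2, the gene of the antioxidant factor NRF2, fell from 66.9 ± 2.10 to 49.9 ± 2.22 FPKM (adjusted p = 0.000163) and Cebpb, a partner of CHOP, from 116 ± 8.55 to 79.8 ± 4.67 (adjusted p = 0.000218). The other genes of the list that rose were Chac1, Trib3, Atf5 and Vldlr, and the others that fell were Atf3, Ppp1r15a, Ppp1r15b, Eif2s1 and Slc3a2. Trib3 rose most, from 9.46 ± 2.35 to 23.2 ± 2.62 FPKM (log2 change 1.23 ± 0.15, limma adjusted p = 0.000482). Atf3 fell most, from 3.27 ± 0.252 to 1.65 ± 0.312 FPKM (−0.70 ± 0.09, adjusted p = 0.000376). The list holds genes of the PERK branch beside ATF4 outputs, and as a whole it had no single direction.

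Among 15 tested sensors and regulators outside the member list 4 rose (26.7%) and 2 fell (13.3%), shares near those of all tested genes (25.4% and 18.4%). Creb3l1, which encodes an ER-anchored transcription factor of the ATF6 type known to drive collagen genes, rose 2.37-fold, from 7.19, 8.37 and 7.42 FPKM to 18, 18.2 and 18.2 (log2 change 1.15 ± 0.06, limma adjusted p = 1.43e-06). The exosome libraries were nearly equal and far above the PBS libraries. Bax, a pro-apoptotic protein that also binds IRE1, fell from 12.1 ± 0.803 to 9.81 ± 0.483 FPKM (adjusted p = 0.00485), and Wfs1, wolframin of the ER membrane, rose from 6.78 ± 0.495 to 8.08 ± 0.228 (adjusted p = 0.0139, but 0.0513 without exosome replicate 2). The 40 other ER folding enzymes tested included 12 that rose (30%, near the 25.4% of all tested genes) and 2 that fell (5%, against 18.4%). The smallest p belonged to Cnpy2, a saposin-like protein (47.0 ± 4.49 to 67.6 ± 1.53 FPKM, adjusted p = 0.000241), the prolyl isomerase gene Fkbp7 (17.4 ± 1.69 to 25.0 ± 0.367, adjusted p = 0.000335) and the cyclophilin C gene Ppic (53.8 ± 4.85 to 76.4 ± 3.01, adjusted p = 0.000366). Each of these 3 rose. Of the other Fkbp genes in the list Fkbp10 and Fkbp14 rose, and Fkbp2, Fkbp9 and Fkbp11 did not pass.

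Other ERAD genes split evenly, 4 higher and 4 lower of 26 tested (15.4% each, against 25.4% and 18.4% of all tested genes). Os9, the lectin that hands trimmed glycoproteins to Sel1l, rose from 18.6, 20.3 and 17.8 FPKM to 29.9, 28.4 and 28.7 (log2 change 0.59 ± 0.05, limma adjusted p = 4.61e-05). Fam8a1, a cofactor of HRD1, rose from 20.4 ± 0.387 to 23.9 ± 0.955 FPKM (adjusted p = 0.00497) and Selk, a selenoprotein of the ER membrane, from 42.6 ± 2.47 to 50.5 ± 2.47 (adjusted p = 0.00686). Of 31 tested genes of the translocon, signal peptidase and oligosaccharyltransferase 3 rose and 1 fell (12.9% called, against 43.8% of all tested genes). They were led by Srp14 of the signal recognition particle (92.7 ± 2.11 to 116 ± 6.01 FPKM, adjusted p = 0.000741) and Krtcap2 of the oligosaccharyltransferase (59.4 ± 1.65 to 69.5 ± 3.95, adjusted p = 0.00627), with Dad1 of the same enzyme the one that fell (8.52 ± 0.793 to 6.74 ± 0.406, adjusted p = 0.00796). Of 27 tested genes of ER export 5 rose (18.5%, against 25.4% of all tested genes) and 3 fell (11.1%, against 18.4%). The smallest p belonged to the cargo receptor genes Ergic3 (38.9 ± 0.761 to 49.5 ± 0.998 FPKM, adjusted p = 0.00024), Lman1 (42.9 ± 0.449 to 51.2 ± 0.554, adjusted p = 0.00098) and Tmed3 (47.1 ± 0.354 to 57.5 ± 3.66, adjusted p = 0.00216), all of which rose. The others that rose were Kdelr1 and Sec23a. Those that fell were Sec24b, Ctage5 and the cargo receptor gene Lman2 (31.4 ± 1.11 to 27.1 ± 0.653 FPKM, adjusted p = 0.00557).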

How the data were processed

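The table holds 21878 genes. Per library the authors deposited expression values read here as FPKM, inferred from Cufflinks in the submitters' processing notes and from the unequal column sums, since the header says only expression. Per the file headers, the authors' comparison in the same table gives each group's mean normalized count (a signal), their ratio as a linear fold and p-values, raw and adjusted. Per the submitters' processing notes the build was mm9, and the tools named were HISAT2, Bowtie2, SAMtools, Trimmomatic, StringTie, Cufflinks, DESeq and HTSeq, with roles, versions and strand setting not given in the sources used here. Overlapping and antisense genes are therefore uncertain. Group totals of the deposited normalized counts were 20341541 for PBS and 19824812 for exosomes, and counts are given as group means only, so no count model was fitted. Libraries were matched by the sample numbers in the labels, 0 pairs of libraries were identical, and 27 gene names turned into dates were repaired by Entrez identifier.

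The fit took genes that reached 1 FPKM in no fewer than 3 libraries and was made with limma 3.58.1 in R 4.3.3 on log2(FPKM + 1), group as the only term, with abundance trend and robust estimation, two-sided, and checked on simulated data. A pseudocount of 1 shrinks the changes of low genes. The members and lists were chosen with earlier results of these data known. Every library's value is given for the 10 called members of largest change and for Hspa5, Hsp90b1, Xbp1, Ern1, Eif2ak3 and Atf6, and for some other members as well. From each pathway list the 3 genes of smallest p are named, with Ddit3 and Atf4, and some other genes as well. Alternatives were other scalings, pseudocount, filters and variance model, a replicate block, and leaving out each library. The level of 1 marker gene is not reported here.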

Additional observations from a re-analysis of the deposited data

How the results depend on the processing

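Over 13 alternatives 13 of the 17 called members kept their call and direction wherever they were tested (Ern1 was not tested with a filter of 5 FPKM), and the calls of Hspa5, Ppib, Manf and Calr ended under the settings given with them. Members called lower numbered 11, and 8 to 12 when each library was left out in turn, and members called higher numbered 6, and 5 to 6. Leaving out single libraries moved all genes called higher from 2612 to between 2032 and 2619 and all called lower from 1889 to between 1371 and 1814. Sec61b, not called, changed sign without PBS replicate 2 (−0.06), exosome replicate 1 (−0.06) or exosome replicate 3 (−0.01), and leaving out each library gave −0.06 to 0.14. Of 20 pathway genes, the 3 of smallest p in each list with Ddit3 and Atf4, 19 kept their call under all 13 alternatives, the exception being Wfs1.

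No pairing by the replicate numbers of the titles was seen in the values. Deviations from the group means correlated at −0.12, −0.02 and −0.29 between libraries of the same number, and each library correlated best with one of another number. With 3 libraries a group these correlations depend on each other, so they cannot show whether a culture or day was shared. With the replicate block 10 members were lower and 5 higher, and the block moved the regulators to 2 higher and 1 lower and the folding enzymes to 1 lower. Counts of the short pathway lists moved by over 1.5 times at other settings too. Without the filter on low values, and without trend and robust estimation, 1 regulator and 1 folding enzyme were lower, and with quantile normalization 3 translocon genes were lower. Leaving out each library gave 4 to 6 lower genes in the list of the PERK branch and ATF4 outputs. It gave 2 to 4 higher and 1 to 2 lower regulators, 0 to 3 lower folding enzymes and 2 to 5 lower ERAD genes. Of the translocon genes 1 to 2 were lower, and of the export genes 2 to 5. The causes were not tested. Changes near 0.1 on the log2 scale are at the limit of what 3 libraries a group resolve here.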

Other observations

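Outside the member list 27 genes held an ERSE match in a RefSeq promoter window, and 5 of them were tested. Spats2l rose from 1.62, 1.83 and 1.25 FPKM with PBS to 3.50, 3.31 and 3.51 with exosomes (limma adjusted p = 0.000128), and Hnrnpa3, an RNA-binding protein gene, fell from 18.1, 16.7 and 16.4 to 14.6, 15.5 and 15.5 (adjusted p = 0.0347). Zfp57, Alg12 and Pan2 did not pass, with log2 changes of 0.14, 0.19 and 0.03. In these 5 genes 4 changes were above 0, where all 8 tested members with ERSE were below 0. The difference was not tested.

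Of the members 30 carry the annotation for protein processing in the ER that the authors' deposited table gives, as do 131 other genes, a list taken up after the data were seen. In the 117 of these that were tested 32 were lower (27.4%, against 18.4% of all tested genes) and 18 higher (15.4%, against 25.4%). Their share of calls was 42.7%, near the 43.8% of all tested genes, and their median log2 change was −0.04, beside 0.04 for all.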
